A study of Aix galericulata with 8 samples.

Results

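ATP2B1, SLC18A1 and RHBG are genes of membrane transporters, for calcium, monoamines and ammonium, and all 3 were listed in the feather epithelium of the male Mandarin duck sail feather. The members were all gene models that carry 1 of these 3 symbols in the deposited epithelium or pulp table. The rule found 3 gene models among 864 table entries, 784 in the epithelium table and 80 in the pulp table. Both tables hold the gene models that the authors' comparison of the medial brown with the lateral blue vane had listed. For the listing the study gives a p-value cutoff and does not say there whether it was adjusted. The 3 symbols were selected on the fold changes and p-values of that comparison. That a member is in the epithelium table is therefore a consequence of how it was chosen and was not tested.

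RNA was sequenced from 8 libraries of untreated wild-type males in the breeding season, from sail feathers in early growth about 4 weeks after plucking. The medial brown and the lateral blue vane were each dissected into epithelium and pulp, which gives 4 groups of 2 libraries. The study's methods give 2 males as the source of the feathers. Libraries of different groups therefore share birds, and the labels do not say which. Feathers came from both wings. The study calls the 2 libraries of a group biological replicates, and the labels do not say whether they are from different birds. The sail feather is an enlarged flight feather of the male wing with a long brown vane on its medial side and a short blue vane on its lateral side. An adjacent flight feather was plucked for RNA too, according to the study's methods, but every label gives the sail feather. The epithelium builds the barbs of the feather, and the pulp is its mesenchymal core. The tables give 1 average level per gene model, as CPM (reads normalised to the size of each library), and 0 columns per library. The study names TMM, a scaling between libraries, as its normalisation. Whether the average CPM includes it is not stated, so the shares of reads given below are approximate. The column of levels names no library. That it covers only the libraries of the tissue was assumed and not tested. Depth per library and replicate spread were therefore unknown. The fold changes and p-values of the authors' comparison were not used here. The levels given are taken to describe the epithelium of both vanes together, with no SD or n.

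These genes belong to different branches of membrane transport. Plasma membrane calcium pumps use ATP to push calcium out of the cell and keep its cytoplasmic level low, and in mammalian epidermis a calcium gradient guides the differentiation of keratinocytes. Vesicular monoamine transporters load amines such as serotonin, noradrenaline and dopamine into storage vesicles in exchange for protons. Rh glycoproteins carry ammonium or ammonia across the membranes of epithelia, best known from the mammalian kidney, where RHBG lies on the basolateral side.

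SLC18A1, the vesicular monoamine transporter VMAT1 of endocrine and enterochromaffin cells in mammals, was represented by the gene model Mandarin_01349900. Its average level in the epithelium table was 5.19 on the log2 CPM scale, which is 36.5 average CPM. Of the 784 gene models in the epithelium table, 460 had a lower average CPM and 323 a higher one, so that 58.7% lay below SLC18A1. Its read share thus lay just above the middle of the table, between the median of 28.7 average CPM and the upper quartile of 57.9.

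RHBG, the Rh family B glycoprotein, was represented by Mandarin_01556300 at a log2 average CPM of 3.61, or 12.2 average CPM. Of the gene models in the epithelium table, 211 had a lower average CPM and 572 a higher one, which places 26.9% of the table below RHBG. The read share of RHBG was close to the lower quartile of the table at 11.3 average CPM.

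ATP2B1, the plasma membrane calcium pump PMCA1 that most mammalian cell types express, was represented by Mandarin_00744100 at a log2 average CPM of 2.40, or 5.29 average CPM. Only 103 gene models of the epithelium table had a lower average CPM and 680 had a higher one, so that 13.1% lay below ATP2B1. Of the 3 members it had the lowest average CPM. CPM is not scaled to transcript length, so these values give the share of reads and do not rank the 3 genes by the abundance of their transcripts.

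**Figure D1:**
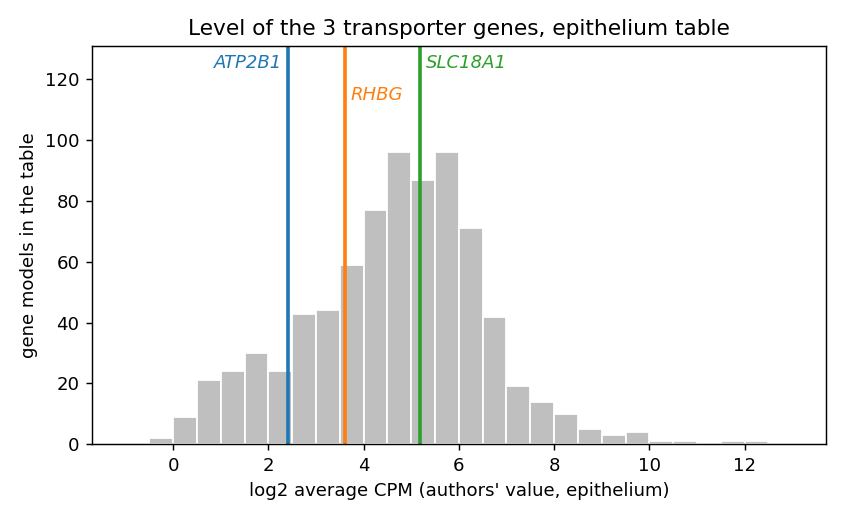
Histogram of log2 average CPM (authors' value, horizontal axis) against the number of gene models (vertical axis) in the epithelium table. The coloured lines mark ATP2B1 at 2.40, RHBG at 3.61 and SLC18A1 at 5.19, the first 2 on the left side of the distribution and SLC18A1 just above its middle.

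The number of gene models that the authors tested is in neither table, so identifiers served as the background. The share listed among tested gene models is unknown. Identifiers ran in steps of 100 up to the 17105th step in the tables, of which 4.58% were listed in the epithelium table and 0.468% in the pulp table. Within 10 identifier steps to either side of each member, the epithelium table held 3 other gene models around RHBG, 1 around ATP2B1 and 0 around SLC18A1, each of 20 identifiers. Near RHBG the next 2 identifiers, Mandarin_01556400 and Mandarin_01556500, were both in the table without a symbol. The neighbours were looked up after the tables had been read. No coordinates were at hand, so whether adjacent identifiers lie together in the genome was not tested. The pulp table held 0 gene models in the same range of any member.

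Genes of the same pathways were looked up in both tables. The members are in the epithelium table by selection, and the lists were chosen with earlier results of these data known. Beside them stands the share of 4.58% of the identifiers up to the highest in the tables. That share also counts gene models without a symbol, which no list can match, so it is not a like measure. The counts from these short lists show nothing particular to a list. Among 20 listed genes of calcium extrusion and store pumps, which include the other PMCA and SERCA pumps and the sodium-calcium exchangers, 1 was in the epithelium table, ATP2B1 itself. Among 32 listed genes of calcium entry and release, 1 was in that table, TRPM3, a calcium-permeable channel, at 69.7 average CPM. Both calcium lists had 0 genes in the pulp table.

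The monoamine list covers synthesis, vesicular storage, uptake and breakdown. Of its 22 genes, 2 were in the epithelium table, SLC18A1 and TPH1, the tryptophan hydroxylase that starts serotonin synthesis outside the nervous system in mammals. TPH1 had 3.34 average CPM, a log2 value of 1.74. The vesicular transporter SLC18A2, the plasma membrane uptake transporters SLC6A2, SLC6A3 and SLC6A4, and the degrading enzymes MAOA and MAOB had no entry in either table. Absence from a table says only that no gene model with that symbol was listed. The gene may be among those without a symbol, and absence says nothing of its level.

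Of 24 listed genes of ammonium and acid-base transport, RHBG and SLC26A3, an exchanger of chloride and bicarbonate, were in the epithelium table. SLC26A3 had 5.37 average CPM, a log2 value of 2.43. The other Rh glycoprotein genes RHAG and RHCG, and GLUL, the glutamine synthetase that consumes ammonium, had no entry under their symbols in either table. The pulp table held 0 genes of the monoamine list and 0 of the ammonium list.

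Families of channels and transporters were taken by the first letters of the symbol, with 40 prefixes. These do not cover every such family. MFSD12 of the major facilitator superfamily, which the study names among its epithelial genes, was not counted. Of the 570 named gene models of the epithelium table, 8 had one of the 40 prefixes, of which the members made up 3. The other 5 were TRPM3, SLC26A3, SLC35A4, a carrier of the nucleotide sugar transporter family, ATP8B2, a phospholipid flippase of the P-type ATPases like ATP2B1 itself, and GRIA3, a subunit of AMPA glutamate receptors. SLC35A4 had 23.8, ATP8B2 19.9 and GRIA3 19.6 average CPM. The 8 gene models ranged between 5.29 and 69.7 average CPM with a median of 19.8, ATP2B1 having the lowest share of reads, beside a median of 28.7 over all gene models of the table.

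The pulp table held 5 gene models with such a prefix among 57 with a symbol (8.77%). None had the symbol of one of the 8 in the epithelium, and 5 gene models of any kind were in both tables. How common these prefixes are among all identifiers was not known, so these counts show nothing particular to the members. The pulp gene models were P2RX1, a cation channel opened by extracellular ATP, at 31.3 average CPM, and 2 of the potassium channel KCND3 at 8.74 and 1.92. The others were SLC27A6, a fatty acid transport protein, at 2.97, and GABRE, a subunit of GABA-A receptors, at 1.25 average CPM. The tables were made from separate comparisons, and levels were not compared between them.

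**Figure D2:**
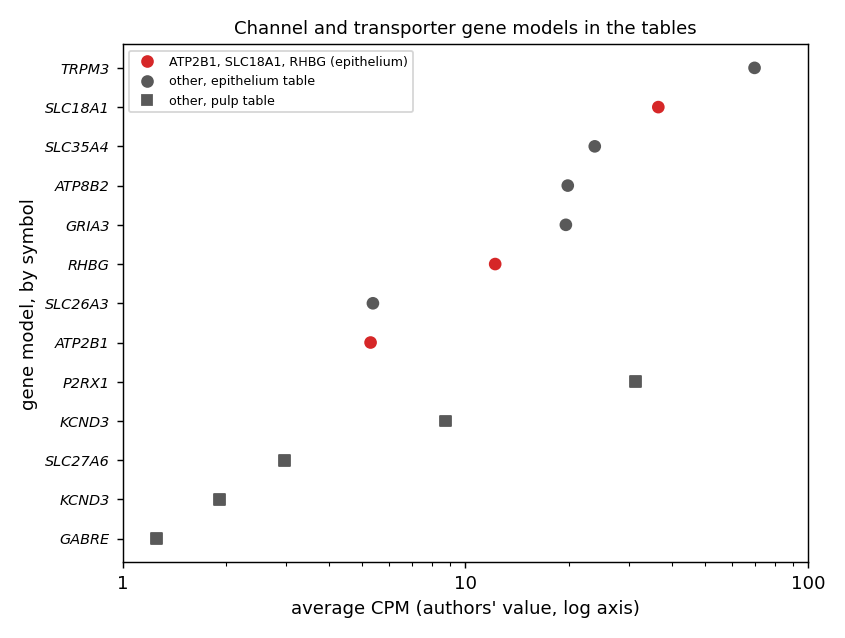
Average CPM (authors' value, log axis) of each gene model with a counted channel or transporter prefix, 1 row each by symbol. Circles stand for the epithelium table and squares for the pulp table. SLC18A1, RHBG and ATP2B1 in red lie at 36.5, 12.2 and 5.29 average CPM, all in the epithelium table.

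The tissues are bulk dissections, in which fewer cells of a type and less RNA per cell cannot be told apart. Markers of other cell types stood in the same epithelium table, which lists 4.58% of the identifiers up to the highest in the tables. The lists were chosen with earlier results of these data known. The number of markers present therefore measures no enrichment of a cell type, which was not tested. Of 6 listed endothelial markers, 3 were present, ENG at 50.0, SHE at 17.0 and TEK at 9.48 average CPM. Of 6 smooth muscle and pericyte markers RGS5 was present at 5.69 average CPM, and of 5 nerve markers NEFL at 11.4. The pulp table held the smooth muscle markers ACTG2, MYH11 and CSRP1 and the melanocyte marker MLANA. It also held the nerve markers STMN4, NPTX1 and NEFL, the last under another gene model than in the epithelium table. The listed markers of epithelium (7), pulp mesenchyme (5) and melanocytes (5) had 0 entries by symbol in the epithelium table. The labelled tissue could therefore not be checked against its own markers. The part of these cells in the levels of SLC18A1, RHBG and ATP2B1 was not tested.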

How the data were processed

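RNA of 8 libraries was sequenced by the authors, who aligned the reads with STAR 2.4.1d and counted them per gene model with HTSeq 0.6.0. They normalised by TMM and compared the vanes within each tissue with edgeR. The study cites a Mandarin duck reference genome held at NCBI, and the build name and annotation used for counting are not given in the sources used here. The deposited tables, 1 per tissue, give for each gene model they list a log2 average CPM that the authors computed. It was taken as the average over the libraries of that tissue, which the column header does not state. They also hold the fold change, p-value and adjusted p-value of the authors' own comparison, which were not used, so that no difference between the vanes is reported. The tables have 0 columns per library, so no test, interval or depth could be obtained. Average CPM was computed as 2 to the power of the log2 value, and positions are the percentage of gene models with a lower average CPM. Gene models were matched by symbol. Apart from MFSD12, which was taken from the study's text, the named genes are the members and all other genes in a table that belong to 3 sources. These are the 4 pathway lists, the 40 channel and transporter prefixes and the cell type markers. SLC18A1, RHBG, ATP2B1 and the lists were chosen with earlier results of these data known. The background share was taken over identifiers up to the highest in the tables, since the number of gene models tested is in neither table. Identifier neighbours were looked up after the tables had been read. No sequences, coordinates or gene lengths of these genes were at hand. Alternatives were the gene models counted and a minimum of 1 average CPM. Python 3.11.15, pandas 2.3.3, numpy 2.4.6 and matplotlib 3.10.9 were used, and the position measure was tested on simulated data.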

Additional observations from a re-analysis of the deposited data

How the results depend on the processing

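The position of each member in the epithelium table was recomputed with named gene models only, with 1 gene model per symbol, with a minimum of 1 average CPM and without the members themselves. The percentage of gene models below a member then lay between 56.1% and 58.7% for SLC18A1, between 23.8% and 26.9% for RHBG and between 11.4% and 13.2% for ATP2B1. The number of gene models with a counted channel or transporter prefix stayed at 8 in the epithelium table. In the pulp table it was 4 with 1 gene model per symbol, against 5 otherwise. All 16 recomputed values of these results stayed within the limit set for each. For a percentage the limit was a binomial sampling interval, although the settings are subsets of 1 table and no random samples. For a count it was a fixed ratio. RHBG with 1 gene model per symbol, at 23.8% against 26.9%, came nearest to its limit. Several alternatives could hardly move a value. Only 2 gene models of the epithelium table lay under 1 average CPM, and all counted channel and transporter gene models reached it. The agreement is therefore no measure of how reliable the levels are. The planned level per kilobase of coding length was not run, because no lengths were at hand. No paired analysis was possible because the tables carry no value per library, and for the same reason no replicate could be left out. How far depth limits SLC18A1, RHBG and ATP2B1 is unknown.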
